A study of Mus musculus with 36 samples.

Results

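Ribosome biogenesis and Myc target genes were followed as a group of 40 mouse genes, listed by symbol, in prostate organoids that carried different FOXA1 constructs. They are Myc itself, 2 subunits of RNA polymerase I, 6 abundant nucleolar proteins, 3 proteins of box C/D particles, 3 of H/ACA particles, 13 factors of the small ribosomal subunit and 12 of the large subunit. All 40 were found among the 45232 genes of the count tables and all 40 passed the filter on low counts, which left 18176 genes for testing. No measured value was used to choose them here, although they were listed with earlier results of these data known.

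The study sequenced polyadenylated RNA from primary mouse prostate organoids, 3-dimensional cultures of prostate epithelial cells. FOXA1, a forkhead protein that prostate epithelial cells express, opens chromatin for other regulators. Cells of every group carried a doxycycline-inducible pCW construct and were sorted for DsRED. The constructs were wild-type FOXA1 (WT), the FOXA1 variants FE255del and R219S, and a control that the labels call empty vehicle (EV). Organoids were collected at days 0, 1 and 11, with 3 replicates of each of the 12 groups and 36 libraries in all. Doxycycline, which switches on the FOXA1-2A-DsRED fusion, was given at 500 ng/mL, and only the names of the deposited tables say that day 0 stands for cultures without it. The replicates of a construct were seeded from 1 sorted, infected population and then handled apart, so p-values measure the spread between those cultures. On every day, a difference between constructs cannot be told apart from a difference between the sorted populations. The same holds for a difference in their changes since day 0. Mouse strain, sex and age are not given in the sources used here.

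Library totals ran from 61476938 to 102385337 counts. The highest total was that of R219S day 0 replicate 2, which stood apart with the lowest mitochondrial share (1.32%). It is left out in turn beside the counts of members that passed in the comparisons that use it. Group means, centred levels, counts in other gene lists and most values of single genes are given only with it included. Reads on the mouse Foxa1 gene averaged 414 ± 4.69 CPM (counts scaled to library size with TMM factors; SD, n = 3) in WT organoids at day 1, 320.2 ± 27.1 in FE255del, 309 ± 5.11 in R219S and 227 ± 4.99 in EV. At day 11 it averaged 269 ± 14.3 CPM in WT, 295 ± 25.7 in FE255del, 268.5 ± 29.6 in R219S and 230.2 ± 12.2 in EV. By the edgeR test these levels were above EV in WT (log2 fold change 0.22 ± 0.06, adjusted p = 0.003), FE255del (0.36 ± 0.06, adjusted p = 6.7e-06) and R219S (0.22 ± 0.06, adjusted p = 0.004). Against its own day 0, Foxa1 was higher in FE255del (0.34 ± 0.06, adjusted p = 1.0e-05) and R219S (0.23 ± 0.06, adjusted p = 0.001). The difference of WT from its own day 0 (256.5 ± 3.19 CPM) did not pass (0.07 ± 0.06, adjusted p = 0.385). Whether transcripts of the constructs were counted on this gene is not given in the sources used here. Prostate epithelial markers summed to 6914 to 17750 CPM over 10 genes in every library, with Epcam between 647 and 1714 CPM. Stromal markers summed to at most 81.0 CPM over 10 genes, endothelial ones to at most 9.08 CPM over 7 genes with Emcn and Cldn5 at 0 in every library, and leukocyte ones to at most 74.2 CPM over 9 genes with Tyrobp at 0. The highest leukocyte sums were in WT organoids at day 1 and the highest stromal sums in R219S at day 11.

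Ribosomes are assembled in the nucleolus, where RNA polymerase I transcribes the precursor of the ribosomal RNAs. Small nucleolar particles modify that precursor, box C/D particles by methylation and H/ACA particles by pseudouridylation, and sets of assembly factors then process the small and the large subunit. Myc is a transcription factor that binds E-box sequences with its partner Max, and genes for nucleolar proteins and assembly factors are among its best known targets, raised in dividing cells and in many tumours, those of the prostate included.

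The canonical E-box that Myc and Max bind, CACGTG, reads the same on both strands. It was searched in RefSeq promoters of the GRCm38.p6 build, each from 250 bases before to 50 bases after the gene start, and the 4 promoters below are those of the members with the motif that differed from EV in the most comparisons, ties taken in alphabetical order. The motif is in capitals.
Tsr1: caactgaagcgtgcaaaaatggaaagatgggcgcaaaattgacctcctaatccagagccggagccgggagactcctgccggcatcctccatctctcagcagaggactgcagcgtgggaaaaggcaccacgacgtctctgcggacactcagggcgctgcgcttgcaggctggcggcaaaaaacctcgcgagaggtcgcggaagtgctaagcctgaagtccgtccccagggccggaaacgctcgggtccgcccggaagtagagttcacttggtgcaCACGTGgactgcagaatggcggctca
Utp4: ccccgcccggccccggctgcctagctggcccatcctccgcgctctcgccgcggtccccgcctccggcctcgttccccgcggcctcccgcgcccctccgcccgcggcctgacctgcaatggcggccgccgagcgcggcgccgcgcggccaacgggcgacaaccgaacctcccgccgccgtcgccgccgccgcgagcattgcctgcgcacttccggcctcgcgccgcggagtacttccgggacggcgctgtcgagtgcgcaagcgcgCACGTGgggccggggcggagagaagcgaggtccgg
Mybbp1a: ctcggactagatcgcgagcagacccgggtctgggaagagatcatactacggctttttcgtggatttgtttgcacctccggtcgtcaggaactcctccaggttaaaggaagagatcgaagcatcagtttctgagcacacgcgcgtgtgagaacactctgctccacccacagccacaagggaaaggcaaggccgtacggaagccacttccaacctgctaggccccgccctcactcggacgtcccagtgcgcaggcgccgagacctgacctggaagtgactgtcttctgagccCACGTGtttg
Nop2: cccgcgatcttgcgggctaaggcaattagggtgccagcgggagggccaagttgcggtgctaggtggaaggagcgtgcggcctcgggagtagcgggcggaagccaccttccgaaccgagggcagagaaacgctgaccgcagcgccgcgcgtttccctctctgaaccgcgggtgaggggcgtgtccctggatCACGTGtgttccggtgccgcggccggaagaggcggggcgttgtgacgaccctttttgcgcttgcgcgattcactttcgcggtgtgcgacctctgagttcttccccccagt

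These promoters lie at chr11:74897830-74898129 (Tsr1), chr8:106893390-106893689 (Utp4), chr11:72441077-72441376 (Mybbp1a) and chr6:125131633-125131932 (Nop2), all on the plus strand. The motif begins 25, 16 and 41 bases after the start of Tsr1, Utp4 and Mybbp1a, and 60 bases before that of Nop2. Promoters were listed for 35 members and 7 of them (20%) hold the motif, the others being Pes1, Utp20 and Wdr43, beside 10.9% of 11958 tested genes and 8.09% of all 27025 genes with a listed promoter. A match is only a match of letters. Against EV at day 1 in WT organoids, the median log2 fold change was -0.27 over the members with the motif and -0.43 over those without it.

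Myc (chromosome 15, 61985391 to 61990374, plus strand, GRCm38) stood above EV at day 0 and below it at day 1 in WT organoids. At day 0 it had 194, 199 and 207 CPM in WT libraries, 186, 183 and 187 in FE255del, 177, 169.6 and 182 in R219S, and 166, 164 and 166 in EV. At day 1 it had 100.1, 99.9 and 101 CPM in WT libraries, 136, 143 and 149 in FE255del, 141, 132 and 126 in R219S, and 166, 175 and 167 in EV. At day 11 it had 178, 182 and 182 CPM in WT libraries, 241, 246 and 235 in FE255del, 166, 160.0 and 154 in R219S, and 188, 199.6 and 203 in EV. No library of any FOXA1 construct overlapped the EV libraries of its day: Myc lay above EV in each construct at day 0, below EV in each at day 1, and at day 11 above EV in FE255del and below it in WT and R219S.

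By the edgeR test, Myc was higher than in EV at day 0 in WT (log2 fold change 0.27 ± 0.04, SE; adjusted p = 2.9e-06) and in FE255del (0.16 ± 0.04, adjusted p = 0.004). The difference at day 0 did not pass for R219S (0.09 ± 0.04, adjusted p = 0.113). At day 1 it was lower in WT (-0.75 ± 0.04, adjusted p = 1.5e-17). It was also lower in both variants, at -0.25 ± 0.04 for FE255del (adjusted p = 3.1e-06) and -0.35 ± 0.04 for R219S (adjusted p = 5.9e-09). At day 11 it was higher in FE255del (0.29 ± 0.04, adjusted p = 2.8e-07) and lower in R219S (-0.30 ± 0.04, adjusted p = 2.5e-07). The small day 11 difference in WT (-0.13 ± 0.04, adjusted p = 0.012) no longer passed without EV replicate 3 (-0.10) or WT replicate 1 (-0.11), nor under total-count scaling (-0.08) or with only the compared groups fitted (-0.12).

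**Figure D1:**
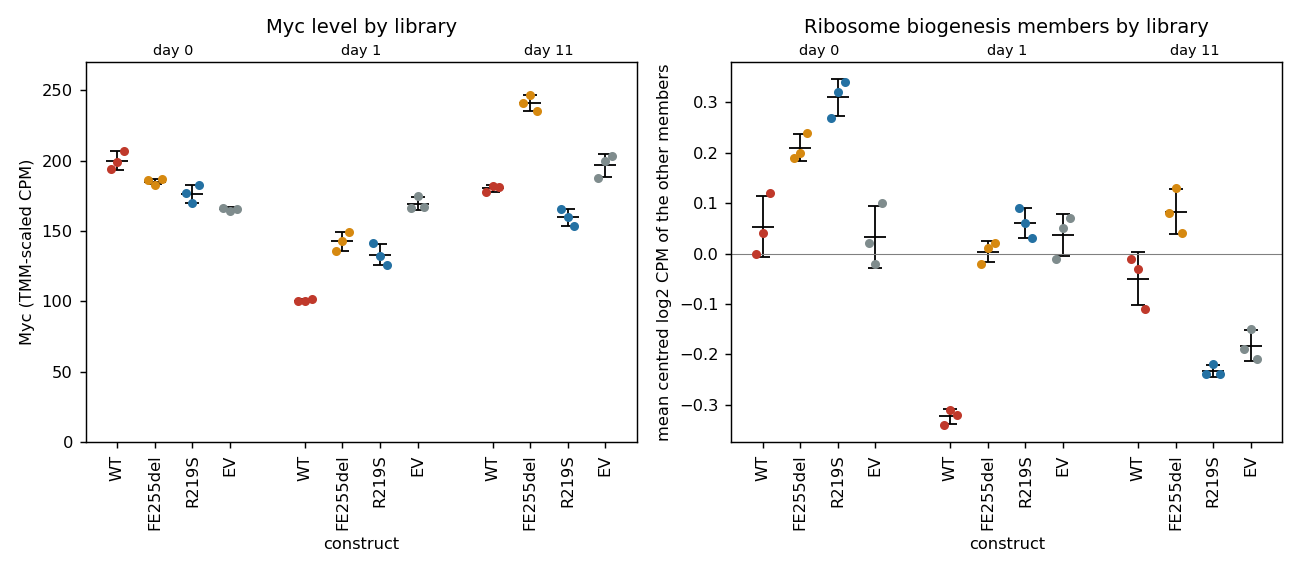
Left, Myc in TMM-scaled CPM in each library, and right, the mean over the other 39 members of log2 CPM centred on each gene's mean over all libraries; points are libraries, bars are mean and SD (n = 3), grouped by day with WT, FE255del, R219S and EV from left to right. Myc is lowest in WT at day 1 (100.5 CPM on average) and highest in FE255del at day 11 (241 CPM), while the other members are highest in R219S at day 0.

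The other 39 members did not follow Myc group by group. Averaged over them, the centred log2 level was 0.05 ± 0.06 in WT, 0.21 ± 0.02 in FE255del, 0.31 ± 0.03 in R219S and 0.03 ± 0.06 in EV at day 0 (SD, n = 3). At day 1 it was -0.32 ± 0.01 in WT, 0.00 ± 0.02 in FE255del, 0.06 ± 0.03 in R219S and 0.04 ± 0.04 in EV. At day 11 it was -0.05 ± 0.05 in WT, 0.08 ± 0.04 in FE255del, -0.23 ± 0.01 in R219S and -0.18 ± 0.03 in EV. The other members were highest in R219S at day 0, where the Myc difference from EV did not pass, and in R219S at day 1 their level overlapped that of EV while Myc was lower. Of the 40 members, 35 had their highest mean in R219S at day 0, 3 in FE255del at day 11 and 2 in R219S at day 1. The lowest mean fell in WT at day 1 for 26, in R219S at day 11 for 9, in EV at day 11 for 4 and in FE255del at day 1 for 1.

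One day after induction the members were lower in WT organoids than in EV in all 7 roles. Of the 40, 37 were lower and 1 higher, beside 30.9% of all tested genes lower and 29.6% higher, and the median log2 fold change was -0.40 over the members and -0.01 over all genes. Noc2l, a nucleolar factor of the large subunit, was lowest (-0.83 ± 0.04, adjusted p = 3.5e-18), then Myc, Nop56 of the box C/D particle (-0.66 ± 0.08, adjusted p = 5.9e-08) and Dkc1, the pseudouridine synthase dyskerin of the H/ACA particle (-0.60 ± 0.06, adjusted p = 1.3e-11). Utp15, a factor of the small subunit, was slightly higher (0.13 ± 0.04, adjusted p = 0.009), a call that was lost without EV replicate 1 or 3 (0.11 each). Rrp12 (-0.14 ± 0.07, adjusted p = 0.077) and Tsr1 (-0.09 ± 0.05, adjusted p = 0.084), both factors of small subunit assembly, did not pass. Rrp12 passed without EV replicate 1 (-0.19, adjusted p = 0.041), and Tsr1 was at 0.03 when scaled by total counts alone. Scaled by total counts alone, the median of all genes was 0.10 and that of the members -0.27, 30 members were lower, and 60.8% of all calls were higher in place of 49.0%. Epithelial markers summed to 7616 to 7836 CPM in WT libraries at day 1 and 6914 to 7265 in FE255del, against 11739 to 12028 in R219S and 13327 to 14310 in EV, and leukocyte markers to 56.8 to 74.2 CPM in WT and 45.4 to 53.0 in FE255del, against 1.95 to 2.42 in R219S and 4.59 to 4.99 in EV, with Csf1r up to 71.2 CPM and Tyrobp at 0. The single epithelial markers varied unequally. Over all libraries Krt5 ran from 750 to 6656 CPM and Krt14 from 224 to 3126, against 941 to 1489 for Cdh1 and 1201 to 2238 for Krt19. The part of these markers in the members' differences was not tested.

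By role, both RNA polymerase I subunits, all 6 nucleolar core proteins, all 3 box C/D and all 3 H/ACA proteins and all 12 large subunit factors were lower in WT at day 1, and 10 of 13 small subunit factors. Median log2 fold changes ran from -0.51 for the H/ACA particle to -0.27 for the large subunit factors.

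At day 1 the members of both variants were at levels close to those of EV, although most stood above EV at day 0 and had fallen since then, as given with the changes since day 0. In FE255del, 4 were higher and 6 lower than in EV, beside 25.5% and 27.7% of all genes, with a median of -0.03. In R219S, 8 were higher and 6 lower, beside 23.2% and 25.3%, with a median of 0.00. In FE255del, 12 were higher under total-count scaling, where 61.0% of all calls were higher in place of 48.0%. In R219S, 13 were higher by DESeq2 or with RLE scaling, 16 under total-count scaling and 17 with only the compared groups fitted. Utp4, a scaffold protein of the small subunit processome, stood above EV in both variants, by 0.39 ± 0.04 for FE255del (adjusted p = 4.8e-10) and by 0.40 ± 0.04 for R219S (adjusted p = 2.2e-10), while it stood below EV in WT (-0.18 ± 0.04, adjusted p = 3.5e-04). Tsr1 stood above EV too, by 0.21 ± 0.05 (adjusted p = 1.8e-04) and 0.31 ± 0.05 (adjusted p = 4.2e-07), as did Rrp12, by 0.30 ± 0.07 (adjusted p = 4.8e-04) and 0.23 ± 0.07 (adjusted p = 0.006). Against day 0, Tsr1 did not pass in either variant, and Rrp12 did not pass in FE255del and was lower in R219S. Noc2l stood below EV in both, by 0.41 ± 0.04 for FE255del (adjusted p = 3.4e-10) and by 0.37 ± 0.04 for R219S (adjusted p = 5.0e-09).

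Utp15 stood apart in R219S at day 1. It had 55.2, 54.2 and 55.0 CPM in FE255del libraries, 76.5, 75.6 and 79.1 in R219S, and 54.7, 59.6 and 54.6 in EV. The R219S libraries lay above all others of that day, and the log2 fold change against EV was 0.45 ± 0.04 (adjusted p = 2.7e-11) in R219S and -0.04 ± 0.04 (adjusted p = 0.464) in FE255del. Utp20 fell in FE255del (-0.34 ± 0.08, adjusted p = 7.6e-04) and had a log2 fold change of 0.17 ± 0.08 in R219S (adjusted p = 0.094). Both are small subunit processome components. The difference between the variants was not tested for either gene.

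**Figure D2:**
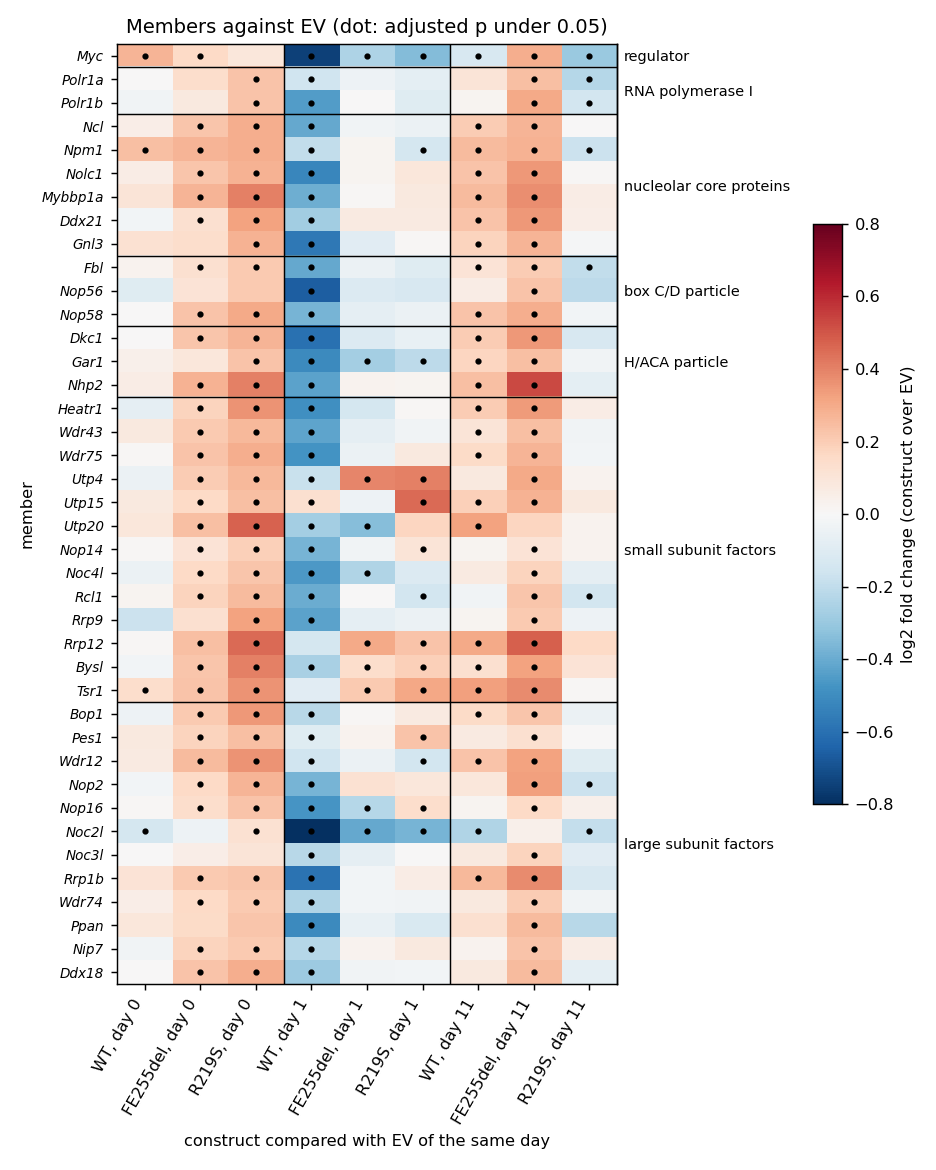
Log2 fold change of each of the 40 members (rows, grouped by role) in WT, FE255del and R219S against EV of the same day (columns, days 0, 1 and 11); red is higher and blue lower than EV, and a dot marks an adjusted p under 0.05. The WT column of day 1 is blue in all but Utp15, while the FE255del and R219S columns of day 0 and the FE255del column of day 11 are red in nearly every row.

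At day 0 the variants already stood above EV. In R219S, 36 members were higher and none lower at day 0, beside 13.2% and 6.92% of all genes, with a median of 0.26 against 0.01 for all genes. Utp20 (0.47 ± 0.08, adjusted p = 1.5e-04), Rrp12 (0.45 ± 0.07, adjusted p = 2.4e-05) and Mybbp1a, a nucleolar protein that binds Myb (0.40 ± 0.04, adjusted p = 1.8e-08), were raised most, with Nhp2 of the H/ACA particle (0.40 ± 0.07, adjusted p = 2.7e-04). The 4 that did not pass were Myc, Nop56 (0.21 ± 0.08, adjusted p = 0.072), Noc3l (0.10 ± 0.05, adjusted p = 0.178) and Ppan (0.22 ± 0.09, adjusted p = 0.099). Nop56 and Ppan passed without R219S replicate 2 (0.27 and 0.30), Nop56 also with only the compared groups fitted (0.19), and Utp20 did not pass with only the compared groups fitted (0.44). R219S replicate 2 had 137 CPM of Utp20, beside 100.1 and 101 CPM in the other R219S libraries. Without it Utp20 was at 0.30, behind Rrp12 (0.44), and 37 members were higher. Under total-count scaling 47.2% of all calls were higher in place of 65.6%, and 34 members were higher.

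In FE255del, 31 members were higher and none lower than EV at day 0, beside 11.1% and 9.72% of all genes, with a median of 0.18. The count fell to 18 without EV replicate 2 or without FE255del replicate 3. In WT, 3 members were higher and 1 lower, beside 9.9% and 12.8%, with a median of 0.01. The 3 were Myc, Npm1, an abundant nucleolar chaperone (0.24 ± 0.04, adjusted p = 5.2e-05), and Tsr1 (0.14 ± 0.05, adjusted p = 0.023), which did not pass without EV replicate 2 (0.10) or WT replicate 3 (0.08). Noc2l was the lower one (-0.14 ± 0.04, adjusted p = 0.011), and was lost without EV replicate 3 (-0.12) or under total-count scaling (-0.12).

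At day 11 the members stood differently against EV in the 3 constructs. In FE255del, 38 members were higher than in EV and none lower, beside 22.6% and 19.6% of all genes, with a median of 0.27. At day 0, 31 members had already stood above EV in FE255del, with a median of 0.18. With its change since day 0 set against that of EV, 2 passed as higher, beside 9.44% of all genes, with a median of 0.10. Nhp2 (0.53 ± 0.08, adjusted p = 5.8e-07), Rrp12 (0.48 ± 0.07, adjusted p = 5.3e-07), Tsr1 (0.38 ± 0.05, adjusted p = 1.1e-08) and Rrp1b, a nucleolar protein of the large subunit pathway (0.38 ± 0.06, adjusted p = 1.9e-06), led. Utp20 (0.17 ± 0.08, adjusted p = 0.10) and Noc2l (0.04 ± 0.04, adjusted p = 0.532) did not pass, although Utp20 did without EV replicate 1 (0.26) or FE255del replicate 1 (0.23) and under total-count scaling (0.19).

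In WT at day 11, 22 members were higher and 2 lower than in EV, beside 21% and 19.7% of all genes, with a median of 0.13. All 6 nucleolar core proteins and all 3 H/ACA proteins were higher than in EV, as were 8 of 13 small subunit factors. Of the large subunit factors 3 of 12 were higher, near the share of all genes. Since day 0, 3 nucleolar core proteins and 3 H/ACA proteins had fallen in WT and none of these roles had risen. In EV all 6 and all 3 had fallen. Tsr1 (0.33 ± 0.05, adjusted p = 2.3e-07), Utp20 (0.32 ± 0.08, adjusted p = 0.002) and Rrp12 (0.30 ± 0.07, adjusted p = 7.5e-04) led, and the 2 lower members were Myc and Noc2l (-0.24 ± 0.04, adjusted p = 1.6e-05). Noc2l was the only lower member without EV replicate 3 or WT replicate 1.

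In R219S at day 11, 8 members were lower and none higher, beside 14.4% and 17.7% of all genes, with a median of -0.03. These were Myc, both RNA polymerase I subunits (Polr1a at -0.23 ± 0.05, adjusted p = 0.001), Npm1, the methyltransferase fibrillarin Fbl (-0.20 ± 0.04, adjusted p = 3.2e-04), Rcl1, Nop2 and Noc2l (-0.19 ± 0.04, adjusted p = 4.5e-04). Without EV replicate 1, 1 member was higher, and without EV replicate 2, 2 were. Under total-count scaling 14 were lower and 42.6% of all calls were higher in place of 55.2%.

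The member with the highest mean CPM in each role, not corrected for gene length, shows the spread between libraries. Ncl, nucleolin, the major nucleolar RNA-binding protein, had 1452, 1481 and 1571 CPM in WT, 1636, 1703 and 1725 in FE255del, 1702, 1822 and 1780 in R219S and 1463, 1386 and 1499 in EV at day 0. Ncl at day 1 had 1011, 1092 and 1028 CPM in WT, 1368, 1352 and 1356 in FE255del, 1374, 1368 and 1286 in R219S and 1349, 1388 and 1434 in EV. Ncl at day 11 had 1361, 1375 and 1343 CPM in WT, 1390, 1481 and 1407 in FE255del, 1134, 1253 and 1160 in R219S and 1194, 1206 and 1146 in EV. Every WT library at day 1 lay below every other library of the series, and R219S and EV overlapped at day 11.

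Polr1a, the largest subunit of RNA polymerase I, had 65.9, 70.7 and 70.0 CPM in WT, 73.5, 76.5 and 77.7 in FE255del, 75.8, 90.8 and 75.8 in R219S and 67.6, 66.7 and 72.3 in EV at day 0. Polr1a at day 1 had 61.4, 64.1 and 58.5 CPM in WT, 63.9, 67.9 and 68.3 in FE255del, 67.8, 62.8 and 64.0 in R219S and 66.0, 70.7 and 68.4 in EV. Polr1a at day 11 had 68.7, 68.4 and 64.0 CPM in WT, 69.9, 77.6 and 74.2 in FE255del, 53.7, 54.3 and 52.1 in R219S and 61.7, 63.9 and 61.8 in EV. Its lowest levels were those of R219S at day 11, below every library of the other constructs on that day, and not those of WT at day 1.

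Nop58, a core protein of box C/D particles, had 197, 216 and 222 CPM in WT, 243, 250.5 and 252 in FE255del, 251, 262 and 271 in R219S and 213, 202 and 222 in EV at day 0. Nop58 at day 1 had 157, 169 and 164 CPM in WT, 204, 204 and 196 in FE255del, 207, 206 and 199 in R219S and 206, 214 and 212 in EV. Nop58 at day 11 had 194, 199.7 and 191 CPM in WT, 200.2, 212 and 196 in FE255del, 157, 173 and 163 in R219S and 167, 173 and 159 in EV. WT and EV overlapped at day 0 and were apart at days 1 and 11, with WT below EV at day 1 and above it at day 11.

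Dkc1 had 109.7, 118 and 125 CPM in WT, 132, 136 and 143 in FE255del, 138, 139 and 149.5 in R219S and 118, 112 and 123 in EV at day 0. Dkc1 at day 1 had 75.7, 84.8 and 77.8 CPM in WT, 116, 106 and 111 in FE255del, 118, 117 and 110.2 in R219S and 114, 124 and 123 in EV. Dkc1 at day 11 had 100.3, 99.5 and 97.7 CPM in WT, 109, 119 and 103 in FE255del, 75.5, 79.0 and 82.5 in R219S and 88.9, 88.1 and 82.9 in EV. R219S libraries were the highest on average at day 0 and the lowest at day 11.

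Wdr43, a scaffold of the small subunit processome, had 139, 144 and 147 CPM in WT, 154, 158 and 158 in FE255del, 156, 163 and 168 in R219S and 138, 127 and 142 in EV at day 0. Wdr43 at day 1 had 99.8, 102 and 103 CPM in WT, 131, 129 and 129 in FE255del, 134, 138 and 128 in R219S and 135, 134 and 139 in EV. Wdr43 at day 11 had 145, 134 and 133 CPM in WT, 154, 148 and 149 in FE255del, 126, 124 and 126 in R219S and 125, 132 and 126 in EV. The WT libraries of day 1 were the lowest of the series, and at day 1 those of FE255del also lay below EV by a small margin while R219S overlapped it.

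Pes1, pescadillo, which acts in large subunit assembly together with Bop1 and Wdr12, varied least of these genes. It had 152, 150.1 and 159 CPM in WT, 158, 167 and 169.5 in FE255del, 167, 170.5 and 180.1 in R219S and 143, 141 and 152 in EV at day 0. Pes1 at day 1 had 129.9, 142 and 134 CPM in WT, 146, 149 and 150.1 in FE255del, 170.5, 172 and 169.6 in R219S and 139, 146 and 151 in EV. Pes1 at day 11 had 147, 148 and 143 CPM in WT, 146, 162 and 149 in FE255del, 137, 140.5 and 140.0 in R219S and 141, 137 and 139 in EV. At day 1 the R219S libraries were the highest (log2 fold change against EV 0.23 ± 0.04, adjusted p = 1.4e-05), and WT overlapped EV.

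**Figure D3:**
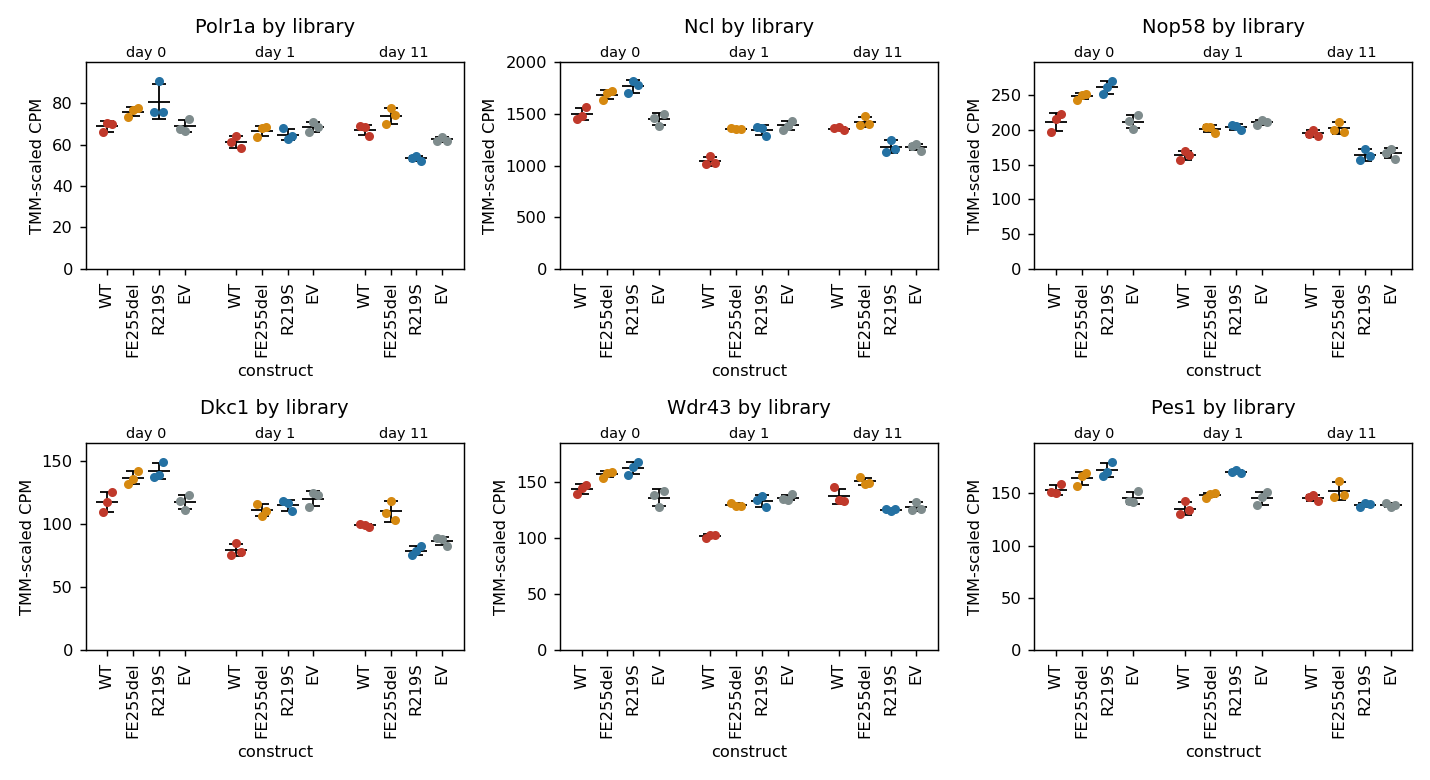
TMM-scaled CPM of the member with the highest mean CPM in each role, Myc left out, one panel a gene. Points are libraries and bars are mean and SD (n = 3), grouped by day with WT, FE255del, R219S and EV from left to right. For Ncl, Nop58, Dkc1 and Wdr43 the WT libraries of day 1 lie below all other libraries of that day, while for Pes1 they overlap EV.

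Since day 0, EV organoids changed little by day 1 and much by day 11. At day 1 no member passed by edgeR or by DESeq2, beside 1.43% of all genes in either direction by edgeR. At an unadjusted p of 0.05, 0 members passed by edgeR and 0 by DESeq2, and the Myc difference was 0.04 ± 0.04. At day 11, 30 members were lower and 1 higher than at day 0, beside 24.6% and 23.1% of all genes, with a median of -0.18. The higher one was Myc (0.25 ± 0.04, adjusted p = 4.1e-06), and Npm1 fell most (-0.55 ± 0.04, adjusted p = 1.8e-12). Mki67, which marks dividing cells, was at 216 ± 12.9 CPM in EV at day 11, against 455 ± 13.3 CPM at day 0 (log2 fold change -1.08 ± 0.08, adjusted p = 5.4e-12).

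Within the FOXA1 constructs the members fell by day 1. In WT, 39 fell and none rose against day 0, beside 30.2% and 28.9% of all genes, led by Myc (-0.99 ± 0.04, adjusted p = 1.2e-20), Rrp1b (-0.73 ± 0.06, adjusted p = 7.4e-13) and Gnl3, nucleostemin (-0.71 ± 0.05, adjusted p = 1.7e-13). In FE255del, 32 fell and 1 rose, beside 28.3% and 25%, with Utp20 the lowest (-0.58 ± 0.08, adjusted p = 4.1e-07), Myc at -0.38 ± 0.04 (adjusted p = 9.6e-10) and Utp4 the higher one (0.21 ± 0.04, adjusted p = 4.5e-05). In R219S, 35 fell and 2 rose, beside 29.5% and 22.7%, with Wdr12 the lowest (-0.48 ± 0.05, adjusted p = 1.1e-09), Myc at -0.40 ± 0.04 (adjusted p = 2.2e-10) and Utp4 and Utp15 the higher pair. The members that did not pass were Utp15 in WT (0.07 ± 0.04, adjusted p = 0.185; passed under total-count scaling, 0.16, and with only the compared groups fitted, 0.12) and Tsr1 (-0.06), Pes1 (-0.01) and Nop16 (-0.10) in R219S, of which Nop16 passed without R219S day 0 replicate 1 (-0.14). Without R219S day 0 replicate 2, 32 fell and 2 rose in R219S. Scaled by total counts alone, 31, 19 and 27 members fell in WT, FE255del and R219S, and the share of calls that were higher was 61.7% in place of 46.9% in FE255del and 56.2% in place of 43.5% in R219S. The members' medians were then -0.32 in WT, -0.13 in FE255del and -0.20 in R219S, in place of -0.41, -0.24 and -0.29.

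By day 11, 18 members had fallen and 1 had risen since day 0 in WT, beside 24.5% and 22.7% of all genes, and 10 had fallen without WT day 0 replicate 3. Myc was at -0.15 ± 0.04 (adjusted p = 0.003). The one that rose was Utp20 (0.20 ± 0.08, adjusted p = 0.047), a call that was lost when any WT library of either day but day 11 replicate 2 was left out (0.16 to 0.22) and with no filter on low counts (0.23). In FE255del, 20 had fallen and 1 had risen, beside 28.1% and 26.7%; the one that rose was Myc (0.38 ± 0.04, adjusted p = 8.6e-10). In R219S all 40 had fallen, beside 30.2%, with a median of -0.51 and Npm1 lowest (-1.01 ± 0.04, adjusted p = 1.2e-19); Myc was at -0.14 ± 0.04 (adjusted p = 0.003). All 40 had also fallen without R219S day 0 replicate 2. Stromal markers summed to 63.8 to 81.0 CPM in R219S at day 11, against 3.29 to 4.10 CPM at day 0, and epithelial markers to 16873 to 17750 CPM, against 13719 to 14222 CPM. In EV the stromal sums were 17.7 to 31.7 CPM at day 11, against 4.26 to 5.29 CPM at day 0, and Col1a2 was at 0 in both groups on both days. Over all libraries Dcn reached 44.7 CPM and Acta2 32.8, while every other stromal marker stayed at or below 1.5. The part of these markers in the members' changes was not tested.

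Because the constructs differed at day 0, the change of each since day 0 was set against the change of EV, in 1 test per gene. At day 1 the members' change was lower than that of EV in each construct. In WT, 36 passed as lower and none as higher, beside 23.8% and 20.2% of all genes, with a median of -0.41; Myc was lowest (-1.03 ± 0.06, adjusted p = 1.7e-16), then Rrp1b (-0.70 ± 0.08, adjusted p = 1.2e-08) and Noc2l (-0.69 ± 0.06, adjusted p = 1.2e-11). The 4 that did not pass were Polr1a (-0.16 ± 0.08, adjusted p = 0.10), Utp4 (-0.13 ± 0.06, adjusted p = 0.077), Utp15 (0.05 ± 0.06, adjusted p = 0.538) and Rrp12 (-0.15 ± 0.10, adjusted p = 0.228). Utp4 passed without EV day 1 replicate 1 (-0.17) or WT day 0 replicate 1 (-0.15), and Utp15 under total-count scaling (0.15), where 28 were lower and 57.6% of all calls were higher in place of 45.9%.

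In FE255del, 26 passed as lower and 1 as higher, beside 22.9% and 17.4% of all genes, with a median of -0.21. Utp20 was lowest (-0.58 ± 0.12, adjusted p = 1.4e-04) with Myc (-0.41 ± 0.06, adjusted p = 3.7e-07), and Utp4 was the higher one (0.18 ± 0.06, adjusted p = 0.010), which was lost without EV day 1 replicate 1 (0.14). The lower count was 17 without EV day 0 replicate 2 or FE255del day 1 replicate 1 or 3, 17 with no filter on low counts and 15 under total-count scaling, where the median of all genes was 0.09 in place of -0.03, that of the members -0.10, and 59.5% of all calls were higher in place of 43.1%.

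In R219S, 28 passed as lower and 2 as higher, beside 23.3% and 16.1%, with a median of -0.30; without R219S day 0 replicate 2 the counts were 29 and 1. Wdr12 was lowest (-0.52 ± 0.07, adjusted p = 4.8e-07), then Noc2l (-0.49 ± 0.06, adjusted p = 3.4e-08), Myc and Gar1 (-0.44 ± 0.06 and -0.44 ± 0.07, adjusted p = 1.2e-07 and 4.7e-06). Utp15 was higher (0.22 ± 0.06, adjusted p = 0.003), and Utp4 (0.14 ± 0.06, adjusted p = 0.043) was lost when EV day 0 replicate 1 or 3, EV day 1 replicate 1, R219S day 0 replicate 1 or 2 or any R219S day 1 replicate was left out (0.10 to 0.15). Under total-count scaling 21 were lower and 54.9% of all calls were higher in place of 40.9%.

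In the same test at day 11, most members passed in R219S and few in WT and FE255del. In R219S, 38 passed as lower and none as higher, beside 14.7% and 12.4% of all genes, with a median of -0.32. Nhp2 (-0.48 ± 0.11, adjusted p = 7.6e-04), Polr1a (-0.46 ± 0.08, adjusted p = 1.8e-05), Wdr12 (-0.46 ± 0.07, adjusted p = 9.7e-06) and Npm1 (-0.45 ± 0.06, adjusted p = 7.2e-07) were lowest, Myc was at -0.39 ± 0.06 (adjusted p = 2.5e-06), and Noc3l (-0.19 ± 0.07, adjusted p = 0.051) and Nip7 (-0.15 ± 0.07, adjusted p = 0.096) did not pass. Noc3l passed without EV day 0 replicate 3, EV day 11 replicate 1 or 3, R219S day 0 replicate 1 or R219S day 11 replicate 1 (-0.21 to -0.23) and under total-count scaling (-0.20), and Nip7 without R219S day 11 replicate 2 (-0.20) or EV day 0 replicate 3 (-0.19). Of the members, 36 were above EV in R219S at day 0, so this test and the direct one, in which 8 members were lower than EV, measure different things. Without R219S day 0 replicate 2, 33 were lower.

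In WT at day 11, 6 members passed as higher and 1 as lower, beside 10.9% and 10.5% of all genes, and the lower one was Myc (-0.40 ± 0.06, adjusted p = 2.1e-06). Rrp12 (0.29 ± 0.10, adjusted p = 0.034), Heatr1 (0.27 ± 0.09, adjusted p = 0.027), Ddx21, a nucleolar RNA helicase (0.25 ± 0.06, adjusted p = 0.002), and Nop58 (0.23 ± 0.06, adjusted p = 0.007) were highest. The higher count was 2 without EV day 0 replicate 1 or 3, WT day 0 replicate 1 or 2 or WT day 11 replicate 1, 1 without EV day 11 replicate 3 and 11 without WT day 0 replicate 3. Heatr1 and Rrp12 did not pass in those settings that left 1 or 2 (0.19 to 0.29), Rrp12 also not without EV day 11 replicate 1 (0.25), and Nop58 not without EV day 11 replicate 3 (0.19). In FE255del, 2 passed as higher and none as lower, beside 9.44% and 11.1%: Polr1b (0.22 ± 0.06, adjusted p = 0.008) and Ddx21 (0.21 ± 0.06, adjusted p = 0.008), and 5 passed without EV day 0 replicate 2. Myc stood at 0.13 ± 0.06 (adjusted p = 0.117), and passed by DESeq2 (0.15), with only the compared groups fitted (0.16), with a stricter filter (0.14) and under total-count scaling (0.17).

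**Figure D4:**
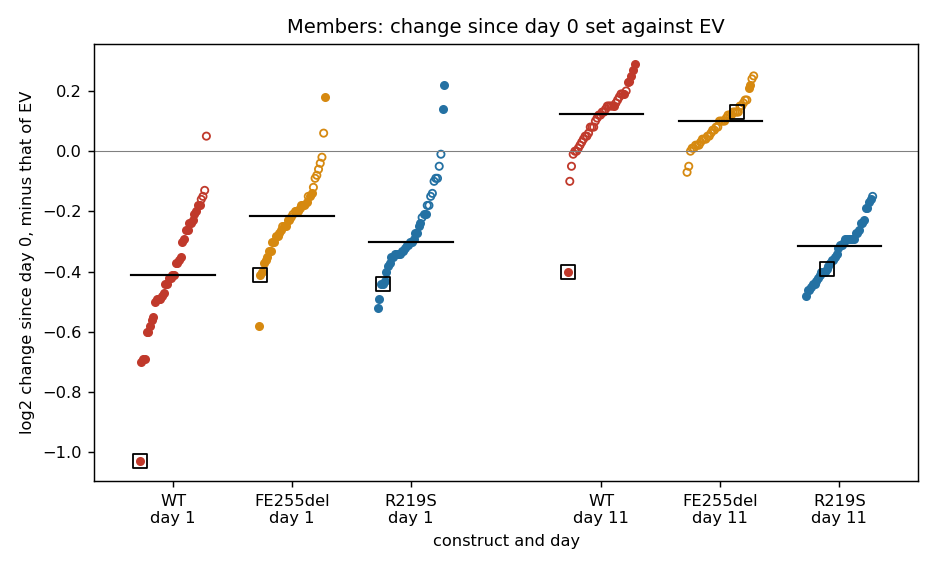
Each point is 1 of the 40 members, ordered by value within its construct and day; the vertical axis is its log2 change since day 0 minus that of EV. Filled points passed at an adjusted p of 0.05, the square marks Myc and the bar is the median, which runs from -0.41 in WT at day 1 to 0.13 in WT at day 11 and is -0.32 in R219S at day 11.

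The variants were also set against WT. At day 1, 36 members were higher and 1 lower in FE255del than in WT, beside 21.8% and 19.9% of all genes, with a median of 0.35. Rrp1b (0.57 ± 0.06, adjusted p = 9.2e-10), Utp4 (0.56 ± 0.04, adjusted p = 2.1e-13) and Nop56 (0.55 ± 0.08, adjusted p = 3.5e-06) led, Myc was higher (0.51 ± 0.04, adjusted p = 3.0e-12), and Utp15 was the lower one (-0.17 ± 0.04, adjusted p = 0.001). Polr1a (0.12 ± 0.05, adjusted p = 0.072), Wdr12 (0.12 ± 0.05, adjusted p = 0.073) and Utp20 (-0.07 ± 0.08, adjusted p = 0.524) did not pass in FE255del, and Polr1a did without WT replicate 2 (0.15). In R219S, 37 were higher and none lower, beside 30.5% and 29.1%, with a median of 0.38; Rrp1b (0.66 ± 0.06, adjusted p = 1.2e-11), Nop16 (0.61 ± 0.05, adjusted p = 1.3e-12) and Nolc1 (0.61 ± 0.06, adjusted p = 9.3e-12) led, and Myc was higher (0.41 ± 0.04, adjusted p = 1.5e-10). Npm1 (0.06 ± 0.04, adjusted p = 0.251), Polr1a (0.08 ± 0.05, adjusted p = 0.205) and Wdr12 (0.01 ± 0.05, adjusted p = 0.870) did not pass in R219S. The sign of Wdr12 changed with the setting and without R219S replicate 1 or 2 (-0.01 each) or WT replicate 1 (-0.02), and that of Npm1 under total-count scaling (-0.01).

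Between FE255del and WT at day 11, 15 members were higher in the variant and none in WT, beside 9.75% and 7.92% of all genes, with Myc highest (0.42 ± 0.04, adjusted p = 1.0e-09). The count was 9 without FE255del replicate 2 or WT replicate 3, and 7 with only the compared groups fitted. In R219S, 30 were lower than in WT and none higher, beside 24.1% and 24.8%, with a median of -0.18; Npm1 (-0.41 ± 0.04, adjusted p = 7.4e-10), Rrp1b (-0.39 ± 0.06, adjusted p = 1.0e-06) and Polr1a (-0.33 ± 0.05, adjusted p = 4.0e-06) were lowest and Myc was lower (-0.18 ± 0.04, adjusted p = 4.8e-04). Npm1 shows the distance: it had 833, 954 and 866 CPM in R219S libraries, against 1191, 1163 and 1176 CPM in WT libraries. The groups did not overlap. Under total-count scaling 35 members were lower and 36.7% of all calls were higher in place of 50.7%.

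At day 0, 23 members were higher and 1 lower in FE255del than in WT, beside 15.7% and 11.2% of all genes, and 35 were higher and 1 lower in R219S than in WT, beside 23.8% and 16%. The lower one was Myc in both, at -0.11 ± 0.04 in FE255del (adjusted p = 0.041; lost without WT replicate 2 or 3 or any FE255del replicate, -0.08 to -0.12) and at -0.18 ± 0.04 in R219S (adjusted p = 4.9e-04). In R219S, Npm1 (0.04), Noc3l (0.10), Rrp1b (0.11) and Ppan (0.13) did not pass; Noc3l did without WT replicate 3 (0.15), and Npm1 was at -0.03 under total-count scaling. Without R219S replicate 2, 35 were higher and 1 lower in R219S. The count of 23 was 13 without WT replicate 1. Under total-count scaling, 44.9% of all calls were higher in place of 58.3% in FE255del, and 43.4% in place of 59.7% in R219S.

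Other genes of the pathway, taken from lists chosen with earlier results known, were set beside them. In WT at day 1, 30.9% of all genes were lower than in EV and 29.6% higher. Of 42 other large subunit factors, 30 were lower and 1 higher (median -0.27). Of 37 other small subunit factors, 20 were lower and 4 higher (median -0.13), among them Utp11 with the smallest p (0.89 ± 0.04, adjusted p = 2.6e-20). Of 33 Myc targets outside the nucleolus, 27 were lower and 3 higher (median -0.39), with the amino acid transporter subunits Slc3a2 (-1.12 ± 0.05, adjusted p = 1.8e-20) and Slc7a5 (-1.05 ± 0.06, adjusted p = 7.9e-17) ahead. In FE255del at day 11, 22.6% of all genes were higher than in EV and 19.6% lower. There 26 of 42 other large subunit factors, 19 of 37 other small subunit factors and 22 of 33 Myc targets outside the nucleolus were higher, and 3, 0 and 3 were lower.

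Of 10 other genes of RNA polymerase I and its initiation factors, 5 were lower and 2 higher than in EV in WT at day 1, beside 30.9% and 29.6% of all genes, with Ubtf, which binds the ribosomal gene promoter, at -0.29 ± 0.04 (adjusted p = 2.6e-07). Rrn3, the initiation factor that joins RNA polymerase I to that promoter, was higher than in EV in R219S at day 1 (1.26 ± 0.04, adjusted p = 6.3e-24) and at day 11 (0.46 ± 0.04, adjusted p = 7.9e-12). Polr1a and Polr1b did not pass in R219S at day 1 and were lower than in EV at day 11.

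Of 18 genes of the Myc network, 4 were higher and 8 lower than in EV in WT at day 1, 5 higher and 7 lower in FE255del, and 4 higher and 6 lower in R219S. These counts stand beside 29.6% higher and 30.9% lower of all genes in WT, 25.5% and 27.7% in FE255del, and 23.2% and 25.3% in R219S. Mycl, a Myc relative, was higher than in EV at day 1, where Myc was lower. At day 1 Mycl had 94.8, 105.5 and 98.8 CPM in WT libraries, 97.05, 89.3 and 90.4 in FE255del, 142, 139 and 133 in R219S and 42.3, 44.6 and 46.0 in EV. No FOXA1 library overlapped EV, and the log2 fold changes were 1.17 ± 0.07 for WT (adjusted p = 3.6e-17), 1.06 ± 0.07 for FE255del (adjusted p = 8.1e-16) and 1.64 ± 0.07 for R219S (adjusted p = 1.1e-20). At day 11 the difference in Mycl was 0.55 ± 0.06 for WT (adjusted p = 1.1e-08), 0.58 ± 0.06 for FE255del (adjusted p = 4.3e-09) and 1.55 ± 0.07 for R219S (adjusted p = 2.1e-19). Max, the common partner, fell in R219S at day 1 (-0.31 ± 0.04, adjusted p = 8.1e-08). Max averaged 89.3 ± 1.94 CPM in FE255del, 62.6 ± 2.46 in R219S and 77.5 ± 2.08 in EV at day 1 (SD, n = 3), and the FE255del libraries lay above all EV libraries. Of 6 genes known to be repressed by Myc, 2 were higher and 3 lower than in EV at day 1 in WT, 2 higher and 4 lower in FE255del, and 1 higher and 5 lower in R219S, beside the same shares of all genes. Cdkn1a, a cell cycle inhibitor, was higher at day 1 in WT (0.79 ± 0.05, adjusted p = 4.5e-15) and in FE255del (1.18 ± 0.05, adjusted p = 1.4e-19), while Ndrg2 was lower in each construct (-1.18 ± 0.06 in WT, adjusted p = 6.6e-19).

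Cell division markers went the way of the members in some comparisons and not in others. Against EV at day 1, 20 of 20 were lower in WT (median -1.02), 20 of 20 in FE255del (-0.58) and 19 of 20 in R219S (-0.37), beside 30.9%, 27.7% and 25.3% of all genes. The members' medians there were -0.40, -0.03 and 0.00. The markers' summed level was 1674 to 1896 CPM in WT, 2250 to 2366 in FE255del, 2578 to 2740 in R219S and 3375 to 3651 in EV. At day 11, 14 markers were higher in WT, 20 in FE255del, and 12 lower in R219S, beside 21%, 22.6% and 14.4% of all genes. At day 0, 18 were higher in R219S and 5 in FE255del, while 7 were lower in WT, beside 13.2%, 11.1% and 12.8%. Set against the change of EV since day 0, 20 of 20 markers were lower at day 1 in WT (median -0.86), FE255del (-0.74) and R219S (-0.64), beside 23.8%, 22.9% and 23.3% of all genes. At day 11, 19 were higher in WT (0.42), 1 was higher in FE255del (0.22) and 19 were lower in R219S (-0.50), beside 10.9%, 9.44% and 14.7%. The part of the markers in the members' differences was not tested. In bulk samples fewer cells that express a gene and less of its RNA per cell cannot be told apart.

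Several members share features that the list did not use. Of the 40, 8 hold small nucleolar RNA genes inside their own gene in the GENCODE M21 annotation of GRCm38 (Ncl, Gnl3, Nop56, Nop58, Dkc1, Wdr43, Tsr1 and Ppan, with 23 in all), beside 1.49% of 14322 tested protein-coding genes. The small nucleolar RNAs themselves were not measured in these polyadenylated libraries. In 17 members an exon overlaps an exon of a gene on the opposite strand, such as Mybbp1a with Spns2, Bysl with Ccnd3, Nop56 with Idh3b and Noc2l with Samd11, and since the strand setting of the counting is not given in the sources used here, reads of such partners could not be told apart. Per kilobase of exon, Npm1 was the most abundant member with 514 CPM per kb on average over all groups, then Ncl with 137, Myc with 62.9, Nhp2 with 56.8 and Mybbp1a with 55.4. Between its highest and lowest group Myc changed 2.4-fold, more than any other member, followed by Npm1 with 2.01-fold, and Pes1 changed 1.27-fold.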

How the data were processed

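RNA was extracted with an RNeasy kit and libraries were made with the TruSeq Stranded mRNA kit, per the labels' protocols. The authors deposited tables of expected counts per gene for each library, with values that lie within 3.0e-09 of whole numbers, and these were rounded. STAR 2.4.2a, featureCounts 1.4.3 and mm10 are named in the submitters' processing notes without their roles, and the annotation release and strand setting are not given in the sources used here. Of 45232 gene IDs, 44585 matched a symbol.

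The 40 members and the other lists were chosen with earlier results of these data known. Genes were kept by filterByExpr over the 12 groups (18176 genes) and fitted together with edgeR 4.0.16 in R 4.3.3 (robust quasi-likelihood F test, TMM factors 0.938 to 1.08, common biological coefficient of variation 0.0695). Each of 29 comparisons was tested over all genes, with Benjamini-Hochberg adjusted p-values and a threshold of 0.05. SE is the absolute log2 fold change divided by the square root of F. Levels are CPM with TMM-scaled library sizes. The comparisons were each construct against EV and each variant against WT on the same day, each construct against its own day 0, and the difference between that change and the same change in EV. The script was tested on simulated data.

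Genes to name were Myc in every comparison, picks from up to 4 members with the largest and 4 with the smallest fold change among those that passed, members that did not pass where 5 or fewer, the member with the highest mean CPM in each role, and up to 3 genes with the smallest p of each other list. Utp4 and Utp15 in comparisons outside that rule, and Rrp12, Tsr1 and Utp20 there, were chosen after their values were seen.

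Library totals ran from 61476938 to 102385337 counts. Alternatives were DESeq2 1.42.0, RLE and total-count scaling, no filter and a stricter filter on low counts (mean of at least 2 CPM, with 1 CPM reached in 6 libraries), a fit of only the compared groups, a replicate block, and leaving out each library in turn. The main fit did not pair samples by replicate number. Promoters came from RefSeq (GRCm38.p6) and loci from GENCODE M21.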

Additional observations from a re-analysis of the deposited data

Results flagged for a closer look

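The change since day 0 differed from that of EV, by the edgeR test of the difference itself, in these results. At day 1, 36 members were lower in WT, beside 23.8% of all genes, with Myc at -1.03 on the log2 scale. In FE255del 26 were lower and 1 higher, beside 22.9% and 17.4%, with Myc at -0.41. In R219S 28 were lower and 2 higher, beside 23.3% and 16.1%, with Myc at -0.44. At day 11, 6 members were higher and 1 lower in WT, beside 10.9% and 10.5% of all genes, the lower one being Myc at -0.40. In FE255del 2 were higher, beside 9.44% of all genes. Neither count is read as a result about the members. In R219S 38 were lower, beside 14.7%, with Myc at -0.39.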

How the results depend on the processing

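Groups of 3 replicates and small changes limit the calls: over all libraries left out in turn, calls on named members were lost in 48 instances and gained in 17. A further 4 instances changed sign and 1167 stayed the same. With only the compared groups fitted, WT against EV at day 0 gave 7 members higher and 3 lower, R219S against EV at day 1 gave 17 higher, WT against EV at day 11 gave 1 lower, R219S against EV at day 11 gave 5 lower and 3817 genes called, and FE255del against WT at day 11 gave 7 higher and 1706 genes. The same setting gave 1 member higher in WT since day 0 at day 1, and for the change beside EV at day 11 gave 2 higher in WT and 5 in FE255del. Under total-count scaling, members higher numbered 6 (0 lower) in WT at day 0, 12 in FE255del and 16 in R219S at day 1, all against EV. The same scaling gave 1 lower in WT and 14 lower in R219S against EV at day 11. Since day 0 it gave 1 higher in WT at day 1 and 3 at day 11, and 19 lower at day 1 and 6 higher at day 11 in FE255del. For the change beside EV it gave 1 higher in WT at day 1 and 10 at day 11, and 15 lower at day 1 and 8 higher at day 11 in FE255del. Under total-count scaling the median member log2 fold change was flagged as moved in 14 of the 29 comparisons. DESeq2 and RLE scaling each gave 13 higher in R219S against EV at day 1 and 2 higher in WT since day 0 at day 11; for FE255del since day 0 at day 11 they gave 5 and 4 higher, and DESeq2 gave 5 higher for its change beside EV. The stricter filter gave 2 higher in WT and 2 in FE255del since day 0 at day 11, and 5 higher for the change of FE255del beside EV. With no filter, 10 were lower in WT since day 0 at day 11 and 17 for the change of FE255del beside EV at day 1. For EV since day 0 at day 1, genes called numbered 393 by DESeq2, 658 with only the compared groups and 171 with the stricter filter, against 260. The counts of members in this paragraph are given without the share of all genes in the same setting. They show how the calls moved and are not read as results about the members.

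Differences near 0 changed sign. Tsr1 was at 0.03 in WT against EV at day 1 and at 0.03 in R219S since day 0 at day 1 under total-count scaling, and Npm1 at -0.03 at day 0 and -0.01 at day 1 in R219S against WT. Wdr12 in R219S against WT at day 1 was at 0.00 with no filter, -0.03 with only the compared groups, -0.01 with the stricter filter, -0.06 under total-count scaling and between -0.02 and 0.05 with 1 library left out. Pes1 in R219S since day 0 at day 1 was at 0.02 by DESeq2, RLE scaling or no filter, 0.04 with only the compared groups, 0.01 with the stricter filter and 0.08 under total-count scaling, and between -0.04 and 0.02 with 1 library left out. The cause of these moves was not tested.

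With 1 library left out, members higher against EV ran from 2 to 4 in WT at day 0, 18 to 31 in FE255del at day 0, 0 to 1 in WT at day 1 and 0 to 2 in R219S at day 11, and members lower from 0 to 2 in WT at day 0 and 1 to 2 at day 11. Genes called ran from 2490 to 3486 in FE255del and 2091 to 3512 in R219S against EV at day 0, and from 62 to 180 in EV since day 0 at day 1. In FE255del against WT, 13 to 27 were higher and 0 to 1 lower at day 0, and 9 to 16 higher at day 11. Since day 0 at day 11, 0 to 2 were higher and 10 to 19 lower in WT, and 1 to 2 higher in FE255del. For the change beside EV, FE255del had 0 to 1 higher and 17 to 28 lower at day 1 and 2 to 5 higher at day 11, WT had 1 to 11 higher at day 11 and R219S 1 to 2 higher at day 1.

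Over 198 pairs of samples with the same replicate number the correlation of deviations ran from -0.25 to 0.32, with a median of 0.00. It was over 0.1 in 29 of the pairs. No pairing was seen over all groups, but a median cannot exclude pairing between some of them. With the replicate block, 2 members were lower in WT against EV at day 0, and the other counts of members kept within 1.5 times.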
